A study of Mus musculus with 9 samples.

Results

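The 9 genes described here encode enzymes and chaperones that fold secretory proteins in the endoplasmic reticulum (ER): the protein disulfide isomerases P4hb, Pdia3, Pdia4, Pdia5, Pdia6 and Txndc5, the thiol oxidase Ero1l, and the lectin chaperones Calr and Canx. They were chosen by name and found by gene symbol in the table of LLC (Lewis lung carcinoma), a mouse lung tumour line of strain C57BL, where they are 9 of 21936 genes. The same gene IDs were read in the table of bone-marrow-derived macrophages (BMDM), also of strain C57BL, where they are 9 of 22060 genes. RNA was sequenced from 9 libraries, 1 per group, so each value below is that of a single library. The macrophages were of a kind labelled GM-BMDM and a kind labelled M-BMDM.

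The 5 LLC libraries were made from cells kept for 24 h in medium of GM-BMDM that had been given tunicamycin for 12 h (CM_G12, GM stressed medium), in medium of M-BMDM given tunicamycin for 12 h (CM_M12, M stressed medium), in medium of GM-BMDM without tunicamycin (CM_G0, GM unstressed medium), in medium of M-BMDM without it (CM_M0, M unstressed medium), and from LLC controls (NT, untreated). The donor macrophages were washed after tunicamycin and given fresh serum-containing medium, which was collected 16 h later. The 4 BMDM libraries were GM-BMDM after 4 h of tunicamycin (GTm4h) and untreated GM-BMDM (G0), with M-BMDM after 4 h of tunicamycin (MTm4h) and untreated M-BMDM (M0). The comparisons ask whether factors from ER-stressed macrophages act on tumour cells and how each kind of macrophage meets the stress itself. No library tells such factors apart from tunicamycin carried over with the donors or their medium. The conditioned-medium donors were treated for 12 h and the sequenced macrophages for 4 h, so these are different time points of the treatment.

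Proteins that enter the ER gain disulfide bonds through thiol-disulfide exchange. Isomerases of the PDI family form and rearrange these bonds, and Ero1 oxidases reoxidise PDI by passing its electrons to oxygen. Calreticulin (Calr) and calnexin (Canx) are lectins that hold glycoproteins carrying a monoglucosylated glycan, and Pdia3, also called ERp57, works with both. Tunicamycin blocks the making of the glycan precursor, and the misfolded proteins that build up start the unfolded protein response, in which the factors ATF6, XBP1 and ATF4 raise chaperone and folding-enzyme genes. A known target sequence of ATF6 with NF-Y is the ER stress response element (ERSE).

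The ERSE, searched as CCAAT, any 9 bases and CCACG on both strands in the 250 bases before each RefSeq start site, was found in 3 of the 9 genes and in 0.113% of 32851 promoter windows of the same length. The sequences are shown because these 3 genes, Calr, Canx and Pdia6, carry the match letter for letter. Each runs 5′ to 3′ on the gene's strand from 250 to 51 bases before the start site (RefSeq, GRCm38.p6), with the ERSE in capitals. The Calr match lies on the opposite strand, so its capitals read as the reverse complement.
Calr, minus strand, chr8:84846982-84847181: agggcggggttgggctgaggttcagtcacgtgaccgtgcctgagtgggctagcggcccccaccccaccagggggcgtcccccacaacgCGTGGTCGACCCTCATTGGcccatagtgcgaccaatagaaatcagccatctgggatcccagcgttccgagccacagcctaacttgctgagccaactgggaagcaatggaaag
Canx, minus strand, chr11:50325724-50325923: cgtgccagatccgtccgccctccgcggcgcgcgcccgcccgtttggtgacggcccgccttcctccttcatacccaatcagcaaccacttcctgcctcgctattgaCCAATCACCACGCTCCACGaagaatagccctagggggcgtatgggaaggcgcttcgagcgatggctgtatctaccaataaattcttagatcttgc
Pdia6, plus strand, chr12:17266339-17266538: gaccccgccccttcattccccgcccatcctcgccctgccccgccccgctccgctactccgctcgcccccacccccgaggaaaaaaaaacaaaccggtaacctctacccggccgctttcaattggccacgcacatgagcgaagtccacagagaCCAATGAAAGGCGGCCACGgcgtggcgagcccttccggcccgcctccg
The capitals stand 162 to 144 bases before the start site in Calr, 145 to 127 bases before it in Canx and 98 to 80 bases before it in Pdia6. Txndc5 has a match to the UPRE core TGACGTGG, a target sequence described for XBP1 and ATF6, 138 to 131 bases before 1 of its 3 listed start sites, a match that 0.563% of windows hold. ERSE-II (ATTGG, any 1 base and CCACG, in 0.0304% of windows) and the amino acid response element TGATGNAAT, bound by ATF4 (in 0.816% of windows), were in none of the members' windows. A match is a run of letters and was not tested for binding.

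Library totals ran from 15020068 to 17128471 counts in LLC and from 37695079 to 42751176 counts in BMDM. All 9 genes passed the minimum of a mean of 1 CPM (counts scaled to a common effective library size) in both tables, with 11190 LLC and 11049 BMDM genes compared. Of 10 macrophage markers, Ptprc, Tyrobp, Adgre1 and Itgam had 0 counts in all 5 LLC libraries, and 4 were past the minimum. Their sums were 28.6 and 29.9 CPM in GM and M stressed medium, 26.6 and 30.4 CPM in GM and M unstressed medium and 40.7 CPM in untreated cells, mostly Cd14 (10.9 to 16.8 CPM) and Mertk (8.06 to 15.8 CPM). Of 6 epithelial markers 2 were past the minimum, Krt8 and Krt18. Krt8 had 424.3 and 432.2 CPM in GM and M stressed medium and 493.6 and 485.0 CPM in GM and M unstressed medium. In untreated cells it had 320.3 CPM. Krt19 was at 0 in all 5 libraries, and Cdh1, Epcam and Cldn4 reached no more than 0.922 CPM in any. All 10 macrophage markers were detected in all 4 BMDM libraries. Among BMDM, summed markers of other cells differed by kind: dendritic cell markers, mostly Itgax (4 of 5 past the minimum, with Ccr7 at 0 in tunicamycin-treated M-BMDM), summed to 1078.3 and 1125.7 CPM in tunicamycin-treated and untreated GM-BMDM and to 16.4 and 12.3 CPM in tunicamycin-treated and untreated M-BMDM.

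Levels of different genes were compared per length, as deposited FPKM. In LLC cells Pdia6, an isomerase that also binds the stress sensor IRE1, stood highest of the 9 in all 5 libraries, at 673.2 and 742.3 FPKM in GM and M stressed medium, 534.9 and 598.5 FPKM in GM and M unstressed medium and 504.8 FPKM in untreated cells. P4hb, the founding PDI and the beta subunit of prolyl 4-hydroxylase, came next in each, between 313.6 and 371.5 FPKM. Pdia5, an isomerase that acts on the stress sensor ATF6, stood lowest in all 5, between 19.3 and 24.7 FPKM. Calr and Pdia3 changed places: Calr was above Pdia3 in both stressed media and below it in the other 3 libraries, by 325.6 against 289.8 FPKM and 360.7 against 312.2 FPKM in GM and M stressed medium, and 231.1 against 240.4 FPKM, 252.2 against 253.8 FPKM and 223.6 against 229.6 FPKM in GM unstressed medium, M unstressed medium and untreated cells.

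The order was different in macrophages. Calr stood highest in all 4 BMDM libraries, at 514.7 and 461.7 FPKM in tunicamycin-treated and untreated GM-BMDM and 400.6 and 352.8 FPKM in tunicamycin-treated and untreated M-BMDM, with P4hb and Canx after it. Pdia6 over Calr, a ratio within a library, was 2.06 to 2.37 across the 5 LLC libraries and 0.172 to 0.234 across the 4 BMDM libraries, so the ranges do not overlap. How often other pairs of genes separate so was not counted. Pdia5 had few counts in BMDM, with 40 and 60 counts in tunicamycin-treated and untreated GM-BMDM and 85 and 43 counts in tunicamycin-treated and untreated M-BMDM. FPKM was deposited in separate tables for LLC and BMDM, and no single gene's level is compared between them here.

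All 9 genes rose in LLC cells kept in stressed medium. Calr rose most, by 1.44-fold, and Txndc5 least, by 1.13-fold, in an additive fit over the 5 libraries (edgeR quasi-likelihood test, adjusted p from 6.8e-21 for Calr to 0.011 for Txndc5). In the same fit 12.5% of all genes rose and 10.9% fell, and the median log2 fold change was 0.34 over the 9 genes and 0 over all genes. Together the 9 genes took 0.754% of all counts (95% Wilson interval 0.749 to 0.758) in GM stressed medium and 0.795% (0.791 to 0.799) in M stressed medium, against 0.600% (0.596 to 0.604) in GM unstressed medium, 0.636% (0.632 to 0.640) in M unstressed medium and 0.563% (0.560 to 0.567) in untreated cells. In bulk RNA, a change in the share of cells and a change in RNA per cell cannot be told apart.

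**Figure D1:**
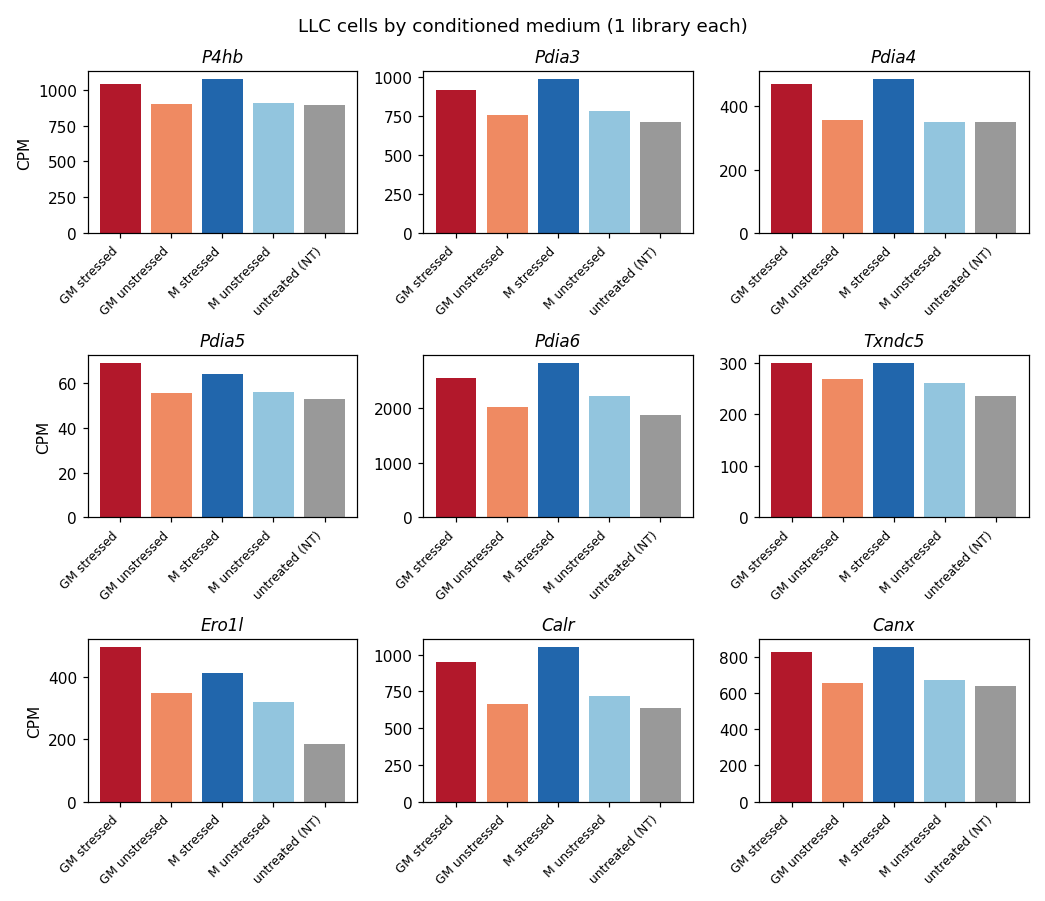
CPM of each of the 9 genes (vertical axis from 0, own scale per panel) in the 5 LLC libraries, 1 bar per library with no error bar because each group is 1 library. Both stressed-medium bars stand above the other 3 in every panel, and the untreated bar is the lowest in each. In Pdia4 it is barely so, at 350.1 against 350.5 CPM in M unstressed medium. Ero1l stands at 494.8, 348.5, 412.0, 317.7 and 184.3 CPM from left to right. How many of all genes separate in this way was not counted.

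The fit treats the GM and M media as parallel and takes its error from how far their responses differ, which leaves 1 residual degree of freedom. Its p-values measure the spread between these libraries, which may be technical, and the spread of LLC genes was taken from the trend over all genes. With DESeq2, 7 of the 9 genes passed, without Pdia5 (adjusted p = 0.38) and Txndc5 (adjusted p = 0.2). Folds between single libraries are given below with exact 95% intervals that cover counting error only.

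Of the lectin chaperones, Calr (ENSMUSG00000003814, chr8:84841850-84846934, GRCm38) had 946.4 and 1052.2 CPM in GM and M stressed medium, against 667.1 and 716.4 CPM in GM and M unstressed medium and 637.1 CPM in untreated cells. The stressed libraries did not overlap the others. How many of all genes separate in this way was not counted, here or for the genes below. Stressed over unstressed medium was 1.42-fold (1.38 to 1.45) with GM and 1.47-fold (1.43 to 1.5) with M, and the fitted log2 fold change was 0.53 ± 0.05 (SE), a value that 2.28% of genes reached. Canx (ENSMUSG00000020368, chr11:50293961-50325673), the membrane-bound counterpart of Calr, had 825.0 and 853.0 CPM in GM and M stressed medium, against 653.7 and 672.9 CPM in GM and M unstressed medium and 635.5 CPM in untreated cells. Its groups did not overlap either, and its fitted log2 fold change was 0.34 ± 0.05 (adjusted p = 9.1e-09, edgeR). Per length, Calr over Canx was 1.87 and 2.01 in GM and M stressed medium, against 1.66 and 1.73 in GM and M unstressed medium and 1.63 in untreated cells.

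Ero1l (ENSMUSG00000021831, chr14:45283087-45318771, Ero1a in RefSeq), the oxidase that recharges PDI, had 494.8 and 412.0 CPM in GM and M stressed medium, against 348.5 and 317.7 CPM in GM and M unstressed medium and 184.3 CPM in untreated cells. The untreated library stood well below all 4 libraries with medium. The fitted log2 fold change for stressed medium was 0.44 ± 0.06 (adjusted p = 1.8e-13, edgeR). P4hb over Ero1l per length, the isomerase over the oxidase that recharges it, was 3.88 and 4.83 in GM and M stressed medium, against 4.77 and 5.26 in GM and M unstressed medium and 8.96 in untreated cells.

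Among the isomerases Pdia4 (ENSMUSG00000025823, chr6:47796141-47813430), also called ERp72, had the largest fitted change. It had 469.9 and 485.3 CPM in GM and M stressed medium, against 354.7 and 350.5 CPM in GM and M unstressed medium and 350.1 CPM in untreated cells. The 3 libraries without stressed medium lay within 1.01-fold of each other, and stressed over unstressed medium was 1.32-fold (1.28 to 1.37) with GM and 1.38-fold (1.34 to 1.43) with M. The fitted log2 fold change was 0.44 ± 0.06 (adjusted p = 2.1e-13, edgeR).

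Pdia6 (ENSMUSG00000020571, chr12:17266545-17284770) had 2544.8 and 2815.8 CPM in GM and M stressed medium, against 2007.7 and 2211.2 CPM in GM and M unstressed medium and 1870.3 CPM in untreated cells, and rose by 0.35 ± 0.05 on the log2 scale (adjusted p = 1e-09, edgeR). Pdia3 (ENSMUSG00000027248, chr2:121413775-121438687), the isomerase that works with both lectins, had 918.1 and 992.8 CPM in GM and M stressed medium, against 756.1 and 785.9 CPM in GM and M unstressed medium and 713.0 CPM in untreated cells. Its log2 fold change of 0.31 ± 0.05 (adjusted p = 1.9e-07, edgeR) was close to that of Canx and below that of Calr. In both genes the stressed libraries stood above all others.

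P4hb, Pdia5 and Txndc5 had the smallest changes. P4hb (ENSMUSG00000025130, chr11:120560298-120573253) had 1039.9 and 1076.6 CPM in GM and M stressed medium, against 899.1 and 905.4 CPM in GM and M unstressed medium and 894.4 CPM in untreated cells, a log2 fold change of 0.23 ± 0.05 (adjusted p = 0.00018, edgeR). Txndc5 (ENSMUSG00000038991, chr13:38500079-38528824), also called ERp46, had 299.1 and 299.7 CPM in GM and M stressed medium, against 269.1 and 260.6 CPM in GM and M unstressed medium and 235.1 CPM in untreated cells, a log2 fold change of 0.18 ± 0.06. Its counting intervals for stressed over unstressed medium, 1.07 to 1.16 with GM and 1.10 to 1.20 with M, lay wholly below those of Calr. Pdia5 (ENSMUSG00000022844, chr16:35397312-35490873) had 69.2 and 64.2 CPM in GM and M stressed medium, against 55.9 and 56.3 CPM in GM and M unstressed medium and 53.0 CPM in untreated cells, on 805 to 1099 counts per library. Its log2 fold change was 0.25 ± 0.07 (adjusted p = 0.0054, edgeR).

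**Figure D2:**
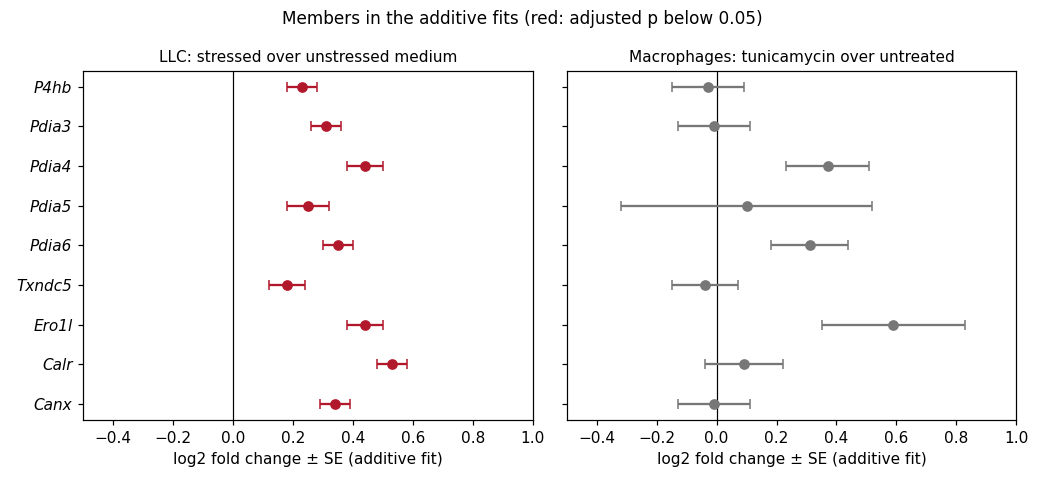
Log2 fold change of each gene with its standard error in the additive fits, for stressed over unstressed medium in LLC cells (left, 5 libraries) and for tunicamycin over untreated in macrophages (right, 4 libraries); red marks an adjusted p below 0.05. All 9 points on the left lie between 0.18 and 0.53 and are red, whereas those on the right lie between -0.04 and 0.59 and none is red. The coefficient of variation was 4.28% in LLC and 11.5% in BMDM, so the calls of the panels cannot be compared directly.

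Around the 9 genes, other ER folding genes in LLC cells moved to different extents with stressed medium; counts are over those past the minimum. Of 12 other ER chaperones, 8 rose and 0 fell, with a median log2 fold change of 0.48. Among them Hspa5 (BiP), the main ER Hsp70, changed by 1.21 ± 0.05 (adjusted p = 8.5e-111, edgeR), and Hyou1, its exchange factor, by 0.95 ± 0.06, both above every one of the 9 genes. Of 20 other ER thiol oxidoreductases, 4 rose and 0 fell, beside 12.5% of all genes that rose and 10.9% that fell, with a median of 0.06. Creld2, a stress-induced isomerase-like protein, changed by 0.79 ± 0.08 and Txndc11 by 0.31 ± 0.07, and both rose.

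Partners of the lectin cycle, which trim, reglucosylate or receive glycoproteins, rose in 6 of 14 cases and fell in 0, with a median of 0.03. Edem1, which marks glycoproteins for degradation, changed by 0.25 ± 0.06, and so did Prkcsh, the glucosidase II beta subunit, at 0.25 ± 0.06 (adjusted p = 0.00037 and 0.00022, edgeR). Of 7 partners of single members, P4ha2 stood out: this catalytic subunit of prolyl 4-hydroxylase, which needs P4hb as its beta subunit, had 96.2 and 91.5 CPM in GM and M stressed medium, against 55.4 and 55.8 CPM in GM and M unstressed medium and 42.6 CPM in untreated cells. It rose by 0.75 ± 0.07 on the log2 scale (adjusted p = 9.1e-25, edgeR), against 0.23 ± 0.05 for P4hb. Tap1, a transporter subunit of the peptide-loading complex that holds Calr and Pdia3, fell by 0.33 ± 0.12 on the log2 scale (adjusted p = 0.034, edgeR), with 16.8 and 16.3 CPM in GM and M stressed medium, against 20.3 and 21.4 CPM in GM and M unstressed medium and 21.7 CPM in untreated cells. Of 9 stress sensors and factors 6 rose and 0 fell, led by Atf3 at 2.45 ± 0.13. Beside these lists, 12.5% of all genes rose and 10.9% fell in the same fit.

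Markers of other cells in the same libraries include Col3a1, which made up most of the summed fibroblast markers: the sums were 1012.2 and 1002.7 CPM in GM and M stressed medium, against 1766.0 and 1540.3 CPM in GM and M unstressed medium and 1187.1 CPM in untreated cells, with 4 of the 6 markers past the minimum and Col1a1 at 0 in untreated cells. Their part in the results was not tested.

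Between GM and M medium 1 of the 9 genes differed. With GM over M medium, Ero1l was higher by 0.20 ± 0.06 on the log2 scale (adjusted p = 0.011, edgeR), the only call among the 9, while 2.21% of all genes were called higher and 2.32% lower. With DESeq2 Ero1l did not pass (adjusted p = 0.46), and 0 of the 9 did. GM over M was 1.20-fold (1.16 to 1.24) for Ero1l with stressed media and 1.10-fold (1.05 to 1.14) with unstressed media, so GM medium gave the higher level at both. Pdia6 and Calr ran the other way without passing: Pdia6 had a log2 fold change of -0.14 ± 0.05 (adjusted p = 0.094) and Calr of -0.13 ± 0.05 (adjusted p = 0.19, edgeR).

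The response to stressed medium was of like size with both donors. The response with GM minus that with M lay between -0.06, in Pdia3 and Pdia4, and 0.13, in Ero1l, with a median of -0.04 over the 9 genes and -0.01 over all genes. With 1 library per group the difference between the responses was not tested. Members higher by at least 0.32 on the log2(CPM + 1) scale, the threshold used for pairs of libraries, numbered 5 of 9 with GM stressed over unstressed medium, where 7.18% of all genes were higher and 9.5% lower by that much. With M they numbered 6 of 9, where 8.59% of all genes were higher and 11.3% lower. No member was lower by that much in either.

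**Figure D3:**
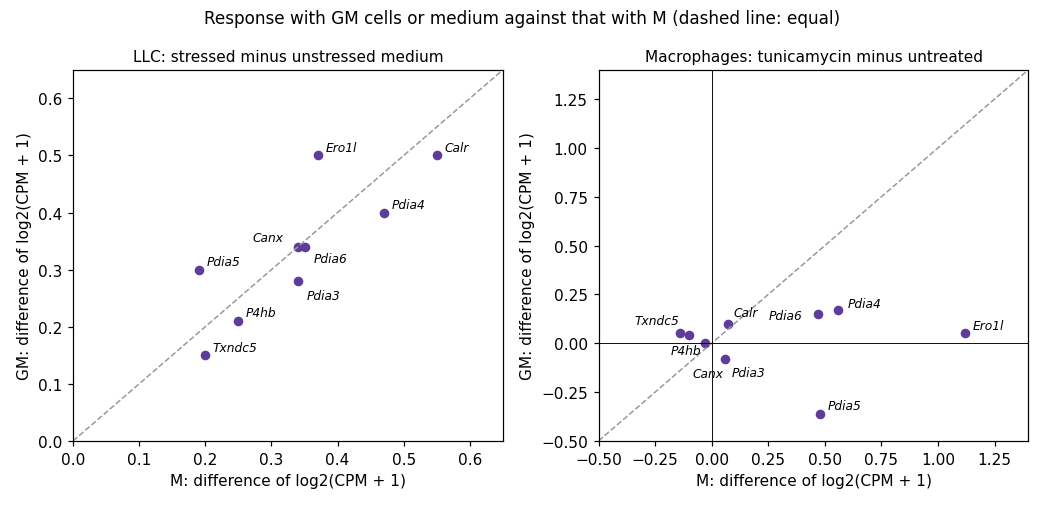
Difference of log2(CPM + 1) between stressed and unstressed medium in LLC cells (left) and between tunicamycin and untreated in macrophages (right), with GM on the vertical axis and M on the horizontal axis, 1 point per gene. The LLC points lie near the line of equal response, and on the right Ero1l lies at 0.05 with GM and 1.12 with M.

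In LLC cells with conditioned medium, averaged over the 4 media, 8 of the 9 genes rose over untreated cells, where 24.9% of all genes rose and 21.9% fell. The median log2 fold change was 0.26 over the 9 genes and 0.02 over all genes. Ero1l rose by 1.07 ± 0.07 on the log2 scale, a 2.1-fold change (adjusted p = 6.8e-53, edgeR) that 1.35% of genes reached. Calr followed at 0.38 ± 0.06 and Pdia6 at 0.34 ± 0.06, while P4hb, at 0.13 ± 0.06, did not pass (adjusted p = 0.065). With DESeq2 6 of the 9 passed. These values share the single untreated library, and how its cells were fed is not given in the sources used here.

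The genes differed in which media stood apart. Against untreated cells, Ero1l stood at 2.68-fold (2.57 to 2.80) in GM stressed, 2.24-fold (2.14 to 2.34) in M stressed, 1.89-fold (1.81 to 1.98) in GM unstressed and 1.72-fold (1.65 to 1.81) in M unstressed medium. It was the only member past the threshold of 0.32 in unstressed medium, where 19.9% of genes were higher by that much with GM and 16.9% with M. Pdia4, by contrast, stood at 1.34-fold (1.30 to 1.39) in GM stressed and 1.39-fold (1.34 to 1.44) in M stressed medium, but at 1.01-fold (0.975 to 1.05) in GM unstressed and 1.0-fold (0.964 to 1.04) in M unstressed medium. P4hb was likewise within counting error of untreated cells in both unstressed media, at 1.01-fold (0.982 to 1.03) with GM and 1.01-fold (0.989 to 1.04) with M. In stressed medium 8 members with GM and 7 with M were past it over untreated cells, where 21.1% and 20.5% of all genes were higher by that much.

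In macrophages treated with tunicamycin directly, none of the 9 genes passed the additive fit over both kinds, nor did any other of the 11049 genes (0%). At an unadjusted p under 0.05 stood 3 of the 9 and 1103 of all genes, and DESeq2 called 0 of the 9 and 52 of all genes. Ero1l had a log2 fold change of 0.59 ± 0.24, Pdia4 of 0.37 ± 0.14 and Pdia6 of 0.31 ± 0.13 (adjusted p = 0.5, 0.48 and 0.5, edgeR). The other 6 lay between -0.04 and 0.10. As in LLC, the 1 residual degree of freedom is how far the responses of both kinds differ. In BMDM this spread of each gene was drawn towards the trend over all genes. The standard error was 0.24 for Ero1l, but 0.14 for Pdia4 and 0.13 for Pdia6, against 0.13 for Calr. Ddit3, among the stress sensors and factors, at 2.63 ± 0.39, and Hspa5, at 0.82 ± 0.17, did not pass either. The lack of calls therefore does not show that tunicamycin left the 9 genes unchanged. Single libraries are given with their counting intervals, which carry no test of tunicamycin.

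**Figure D4:**
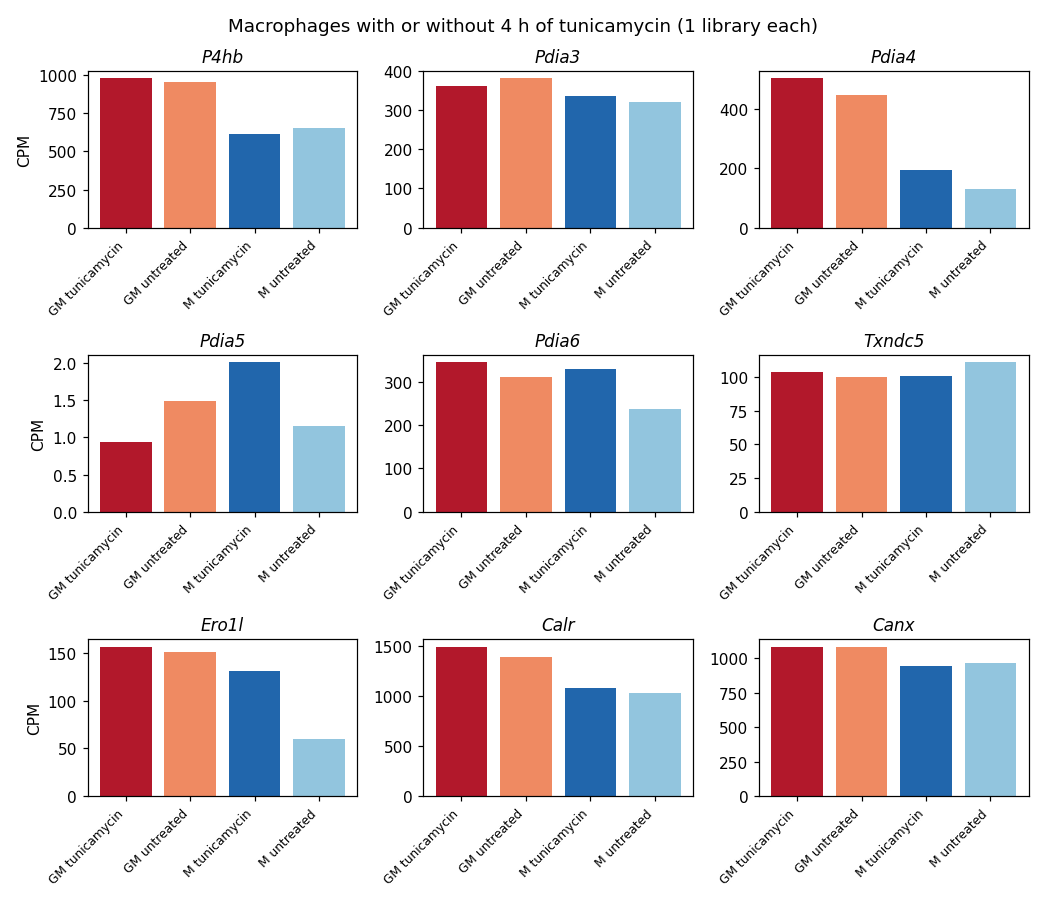
CPM of each of the 9 genes (vertical axis from 0, own scale per panel) in the 4 BMDM libraries, 1 bar per library with no error bar because each group is 1 library. Untreated M-BMDM has the lowest bar for Ero1l, at 60.1 CPM, and for Pdia4, at 131.4 CPM, and Pdia5 reaches no more than 2.01 CPM.

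The treated and untreated M-BMDM libraries differed in 4 of the 9 genes by 0.32 or more on the log2(CPM + 1) scale, all higher with tunicamycin, where 12.8% of all genes were higher and 12.8% lower by that much. Ero1l had 131.6 CPM in tunicamycin-treated M-BMDM, against 60.1 CPM in untreated M-BMDM, 2.19-fold (2.08 to 2.30), a difference that 0.878% of genes reached. Pdia4 had 194.8 CPM in tunicamycin-treated M-BMDM, against 131.4 CPM in untreated M-BMDM, 1.48-fold (1.43 to 1.54). Pdia6 had 329.7 CPM in tunicamycin-treated M-BMDM, against 237.8 CPM in untreated M-BMDM, 1.39-fold (1.35 to 1.42). Pdia5 was 1.75-fold (1.20 to 2.58) on 85 counts in tunicamycin-treated M-BMDM, against 43 counts in untreated M-BMDM. The other 5 genes, among them both lectins, lay between 0.909-fold (Txndc5) and 1.05-fold (Calr, Pdia3).

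In GM-BMDM the same 4 h put no member higher by that much, where 3.71% of all genes were. Ero1l had 157.1 CPM in tunicamycin-treated GM-BMDM, against 151.3 CPM in untreated GM-BMDM, 1.04-fold (1.0 to 1.08). Pdia4 had 503.6 CPM in tunicamycin-treated GM-BMDM, against 448.2 CPM in untreated GM-BMDM, 1.12-fold (1.10 to 1.15). Pdia6 had 343.9 CPM in tunicamycin-treated GM-BMDM, against 310.8 CPM in untreated GM-BMDM, 1.11-fold (1.08 to 1.13). Only Pdia5, at 40 counts in tunicamycin-treated GM-BMDM, against 60 counts in untreated GM-BMDM, was past the threshold, and lower, at 0.632-fold (0.413 to 0.959), where 5.67% of all genes were lower by that much. Calr and Canx had 1.07-fold (1.06 to 1.09) and 1.0-fold (0.989 to 1.02).

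The response of GM-BMDM minus that of M-BMDM was -1.06 on the log2(CPM + 1) scale for Ero1l, a value that 1.17% of genes matched or fell below. It was -0.84 for Pdia5, -0.40 for Pdia4 and -0.32 for Pdia6, and between -0.14 and 0.19 for the other 5. Hspa5 and Ddit3, outside the 9 genes, also had the wider gap in M-BMDM. Hspa5 had 1541.5 CPM in tunicamycin-treated GM-BMDM, against 1047.6 CPM in untreated GM-BMDM, and 2301.5 CPM in tunicamycin-treated M-BMDM, against 1080.1 CPM in untreated M-BMDM. Ddit3 (CHOP), a factor known to raise Ero1l, had 44.3 CPM in tunicamycin-treated GM-BMDM, against 13.5 CPM in untreated GM-BMDM, and 194.3 CPM in tunicamycin-treated M-BMDM, against 17.0 CPM in untreated M-BMDM. Macrophage markers in the same libraries summed to 37768.9 CPM in tunicamycin-treated GM-BMDM, against 39954.5 CPM in untreated GM-BMDM, and to 32794.5 CPM in tunicamycin-treated M-BMDM, against 52112.3 CPM in untreated M-BMDM, most of it Lyz2. Their part in the results was not tested.

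Over the 9 genes the median fitted log2 fold change was 0.22 for GM-BMDM over M-BMDM and 0.09 for tunicamycin over untreated. Pdia6 had the larger change with tunicamycin, at 0.31 against 0.22 for kind. In the additive fit 4 of the 9 genes were higher in GM-BMDM than in M-BMDM and 0 lower, where 25.4% of all genes were higher and 25.0% lower. Pdia4 led with 503.6 and 448.2 CPM in tunicamycin-treated and untreated GM-BMDM, against 194.8 and 131.4 CPM in tunicamycin-treated and untreated M-BMDM. These groups did not overlap, and the log2 fold change was 1.57 ± 0.14 (adjusted p = 0.00013, edgeR), which 9.55% of genes reached. P4hb had 979.7 and 953.6 CPM in tunicamycin-treated and untreated GM-BMDM, against 612.3 and 654.7 CPM in tunicamycin-treated and untreated M-BMDM, a log2 fold change of 0.61 ± 0.12 (adjusted p = 0.0063). Calr had 1493.3 and 1390.7 CPM in tunicamycin-treated and untreated GM-BMDM, against 1082.6 and 1028.0 CPM in tunicamycin-treated and untreated M-BMDM, a log2 fold change of 0.45 ± 0.13 (adjusted p = 0.023, edgeR).

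Ero1l passed as well, at 0.79 ± 0.24 (adjusted p = 0.03, edgeR), and between single libraries GM-BMDM over M-BMDM was 1.19-fold (1.15 to 1.24) with tunicamycin and 2.52-fold (2.40 to 2.64) without, a difference that was not tested. For Pdia6 it was 1.04-fold (1.02 to 1.07) with tunicamycin and 1.31-fold (1.27 to 1.34) without, and Pdia6 did not pass (adjusted p = 0.19). Canx, Pdia3, Pdia5 and Txndc5 did not pass either, with log2 fold changes between -0.38 and 0.18. Canx had 1084.7 and 1082.5 CPM in tunicamycin-treated and untreated GM-BMDM, against 945.4 and 964.4 CPM in tunicamycin-treated and untreated M-BMDM. Pdia3 had 361.4 and 381.1 CPM in tunicamycin-treated and untreated GM-BMDM, against 335.7 and 320.9 CPM in tunicamycin-treated and untreated M-BMDM. For Canx and Pdia3 both GM libraries stood above both M libraries. How many of all genes separate by kind in this way, as Pdia4 does too, was not counted. Txndc5 varied least of the 9 in BMDM, by 1.11-fold between its lowest and highest library, with 104.0 and 100.2 CPM in tunicamycin-treated and untreated GM-BMDM, against 100.8 and 110.9 CPM in tunicamycin-treated and untreated M-BMDM. DESeq2 called 4 of the 9, where it called 4608 of all 11049 genes (2544 higher and 2064 lower).

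Of the 7 partners of single members, 3 were lower in GM-BMDM and 0 higher. Tapbp (tapasin), which is linked to Pdia3 by a disulfide bond, had 248.8 and 222.8 CPM in tunicamycin-treated and untreated GM-BMDM, against 420.4 and 409.6 CPM in tunicamycin-treated and untreated M-BMDM, and fell by 0.82 ± 0.12 on the log2 scale (adjusted p = 0.0012, edgeR). Tap1 fell by 0.96 ± 0.12 and P4ha2 fell by 2.11 ± 0.17, P4ha2 being a partner of P4hb. P4ha2 was low, with 2.8 and 2.63 CPM in tunicamycin-treated and untreated GM-BMDM, against 12.7 and 10.9 CPM in M-BMDM. P4ha1, a more abundant partner of P4hb, was not called, with 153.4 and 142.3 CPM in tunicamycin-treated and untreated GM-BMDM, against 126.9 and 129.2 CPM in M-BMDM. B2m and Tap2, also tied to peptide loading, did not pass: B2m had 2841.9 and 3404.0 CPM in tunicamycin-treated and untreated GM-BMDM, against 2641.4 and 3117.9 CPM in tunicamycin-treated and untreated M-BMDM, and Tap2 had 42.7 and 37.6 CPM in tunicamycin-treated and untreated GM-BMDM, against 44.9 and 44.5 CPM in tunicamycin-treated and untreated M-BMDM. Beside 25.4% of all genes higher and 25.0% lower, of 20 other ER thiol oxidoreductases 6 were higher and 1 lower, of 13 lectin cycle partners 1 (Mlec, malectin) was higher and 0 lower, and of 11 other ER chaperones 2 were higher and 0 lower. Of 9 stress sensors and factors 1 was higher and 4 lower, with a median log2 fold change of -0.30, among them Ddit3 at -1.28 ± 0.38, the sensor Ern1 (IRE1) at -1.09 ± 0.22 and Atf6b at -0.81 ± 0.13 (adjusted p = 0.028, 0.0055 and 0.0019, edgeR). Hspa5 did not pass between kinds, at -0.31 ± 0.16 (adjusted p = 0.16).

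Markers of other cells moved with the kind. Neutrophil markers summed to 1607.8 and 1679.9 CPM in tunicamycin-treated and untreated GM-BMDM, against 31.9 and 50.5 CPM in tunicamycin-treated and untreated M-BMDM. Most of the GM-BMDM sums was Mmp8, at 1485.5 and 1458.8 CPM in tunicamycin-treated and untreated cells. Of the 10 markers 5 were past the minimum, with Ly6g at 0 in tunicamycin-treated and Elane at 0 in untreated M-BMDM. Mast cell, basophil and eosinophil markers summed to 106.6 and 138.3 CPM in tunicamycin-treated and untreated GM-BMDM, against 1.35 and 1.69 CPM in tunicamycin-treated and untreated M-BMDM. Most of the GM-BMDM sums was Siglecf, at 73.5 and 93.9 CPM in tunicamycin-treated and untreated cells. Of the 8 markers 3 were past the minimum, with Epx and Fcer1a at 0 in tunicamycin-treated and Ms4a2 at 0 in untreated M-BMDM. Plasma and B cell markers, of which 1 of 8 (Sdc1) was past the minimum and 5 were at 0 in either M-BMDM library, summed to 260.4 and 255.8 CPM in tunicamycin-treated and untreated GM-BMDM, against 25.8 and 29.3 CPM in tunicamycin-treated and untreated M-BMDM. Each sum in GM-BMDM rests mostly on a single gene, and the sums do not show whether such cells were present. Less abundant markers were also higher in untreated GM-BMDM than in untreated M-BMDM. Among them were S100a8 (63.1 against 1.74 CPM), S100a9 (71.8 against 1.58 CPM), Ngp (46.0 against 0.268 CPM) and Kit (35.6 against 0.778 CPM). No listed neutrophil, mast cell, basophil or eosinophil marker went the other way between these libraries. Their presence and their part in the results were not tested.

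Over all 9 libraries, with log2(CPM + 1) of each gene centred on its mean within its table, the average profile of the 9 genes stood at 0.23 and 0.25 in GM and M stressed medium, -0.11 and -0.09 in GM and M unstressed medium and -0.28 in untreated LLC cells. In BMDM it stood at 0.21 and 0.20 in tunicamycin-treated and untreated GM-BMDM, and at -0.07 and -0.35 in tunicamycin-treated and untreated M-BMDM. Of 8380 genes with a mean of at least 5 CPM in both tables, the 5 non-members most like this profile were Pfas (Pearson r = 0.994), Vps54 (0.988), Cdca4 (0.987), Lyar (0.981) and Cstf3 (0.98), a description over 9 libraries that share tables and scaling. Each member is part of the profile, which raises its own r. Among the members r ran from 0.946 for Calr, at rank 41 of the 8380 genes, to 0.447 for Txndc5. Pdia5, also part of the profile, was below a mean of 5 CPM in BMDM and was not ranked.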

How the data were processed

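RNA was measured in 9 mouse libraries, 1 per group, grouped by their titles and treatment labels. The deposited LLC table and the deposited BMDM table hold read counts per gene, with 0 cells that were not whole numbers, and FPKM values were deposited beside them, per the file headers. FPKM computed anew from the counts and gene lengths differed by at most 5.0e-07 for LLC and 4.9e-06 for BMDM. The submitters' processing notes name TopHat2 2.1.0, HISAT2 and cutadapt 1.15 without role or order. Which program counted the reads, whether by strand, and on which build is not given in the sources used here, so reads of overlapping genes cannot be told apart. Of 21817 LLC gene IDs found in GENCODE M21 (GRCm38), 99.0% had equal coordinates, all 9 members among them. A line-end character inside cells of the LLC table was stripped before reading.

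CPM was computed per table on TMM effective library sizes (edgeR 4.0.16, R 4.3.3). Genes entered at a mean of at least 1 CPM. Differences between libraries are on the log2(CPM + 1) scale, which understates changes of low genes, and folds are ratios of CPM with exact Clopper-Pearson 95% intervals, which cover counting error only. A member counts as past the threshold for a pair from a log2 difference of 0.32. Additive models of the counts were tested by edgeR's quasi-likelihood test, adjusted by Benjamini-Hochberg over all genes of a table, at 0.05. The BMDM model held kind and tunicamycin, and the LLC model medium against none, tunicamycin of the donors and kind of medium. Each left 1 residual degree of freedom. The coefficient of variation was 4.28% in LLC and 11.5% in BMDM. Standard errors come from the F statistic, the size of the log2 fold change over its root. The fits were tested on simulated data. DESeq2 1.42.0 was an alternative, with RLE scaling, total counts, no minimum, other pseudocounts and, for LLC, leaving out the untreated library.

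The members and gene lists were chosen with earlier results of these data known. All 9 members are named. From each list the text draws on up to 3 genes of largest absolute log2 fold change at a mean of at least 5 CPM, with Hspa5 and single markers named beside them. Of 2 gene IDs named Ddit3 the one with counts was used. Promoter sequences are those of RefSeq (GRCm38.p6), matched by symbol for all 9 members, with 250 bases searched and the 50 next to the start site not printed.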

Additional observations from a re-analysis of the deposited data

Results flagged for a closer look

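In 3 genes the tunicamycin-treated over untreated values of GM-BMDM and M-BMDM lay on opposite sides of 1 with both counting intervals clear of it. The difference between the responses was not tested, as each group is 1 library. The same rule was not run over all genes, so how common such a pattern is was not determined. For Pdia5 the response of GM-BMDM minus that of M-BMDM was -0.84 on the log2(CPM + 1) scale, on 40 to 85 counts per library. For Pdia3 it was -0.14, with 0.948-fold (0.927 to 0.970) in GM-BMDM and 1.05-fold (1.02 to 1.07) in M-BMDM. For P4hb it was 0.14, with 1.03-fold (1.01 to 1.04) in GM-BMDM and 0.935-fold (0.919 to 0.952) in M-BMDM. With total counts as the scaling P4hb stood at 0.09 in GM-BMDM and 0.01 in M-BMDM, so that its directions were no longer opposite. Pdia3 was then 0.984-fold (0.963 to 1.01) in GM-BMDM, an interval that holds 1, and 1.13-fold (1.1 to 1.16) in M-BMDM. Pdia5 was 0.657-fold (0.429 to 0.996) in GM-BMDM and 1.88-fold (1.29 to 2.78) in M-BMDM, still on opposite sides of 1.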

How the results depend on the processing

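No paired analysis was possible because each group holds 1 library and the labels carry no replicate numbers, and for the same reason no replicate could be left out. All 9 members stayed called for stressed medium under RLE scaling, total counts, no minimum and without the untreated library, and 7 with DESeq2. Members called for kind of medium numbered 1 in the edgeR fit, 3 with total counts (Ero1l higher, Pdia6 and Calr lower) and 0 with DESeq2; the cause was not tested. Over all genes DESeq2 called 308 higher and 168 lower for stressed medium (476), against 1395 higher and 1216 lower with edgeR (1208 and 1508 with total counts), 30 for kind of medium, against 247 higher and 260 lower, and 1992 for medium against none, against 2781 higher and 2450 lower. For tunicamycin in BMDM it called 52 and edgeR without the minimum 101, against 0, with 0 members in each. Pdia5 for medium against none did not pass with total counts (adjusted p = 0.056), no minimum (0.05) or DESeq2 (0.5).

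Total counts shifted treated against untreated M-BMDM by 0.11 for all genes on the log2 scale. The member median there was 0.18 instead of 0.07, that of untreated GM-BMDM against M-BMDM 0.34 instead of 0.38, and that of tunicamycin-treated GM-BMDM against M-BMDM 0.10 instead of 0.20 (0.22 with RLE). For M stressed against unstressed medium the median was 0.30 instead of 0.34, and 3 instead of 6 members were past a log2 difference of 0.32. Of 432 single pair values 388 stayed within the counting interval and 44 did not, with no reversal of a value past 0.32. Low counts limit Pdia5 in BMDM. With a pseudocount of 5 CPM its treated minus untreated difference was 0.19 instead of 0.48 in M-BMDM and -0.13 instead of -0.36 in GM-BMDM. Neither was then past 0.32, so the counts of members past it in BMDM depend on the pseudocount through Pdia5.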

Other observations

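Txndc16, a further ER thioredoxin-domain gene, had 0 counts in all 5 LLC libraries, where a limit of 3 counts allows up to 0.177 to 0.198 CPM per library. In BMDM it had 52.2 and 56.6 CPM in tunicamycin-treated and untreated GM-BMDM and 56.4 and 67.0 CPM in tunicamycin-treated and untreated M-BMDM. The tables were scaled separately, so this sets detection beside a level and is no fold. Cdh1, an epithelial cadherin, had 32.1 and 73.5 CPM in tunicamycin-treated and untreated GM-BMDM, against 0.190 and 0.0268 CPM in tunicamycin-treated and untreated M-BMDM. Both genes were singled out after their values were seen.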
